A study of Mus musculus with 32 samples.

Results

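Insl6, Htr7 and Gxylt2 were examined as 3 genes of the 22850 in the table of normalized expression, and they were chosen by their scores in islet macrophages (MΦs), which were much higher on doxycycline (Dox) than before it. That difference is therefore given below as a description without a test. The mice were βVEGF-A; MIP-GFP animals on a C57BL/6 background, in which the rat insulin promoter drives the rtTA activator in β cells, Dox in the drinking water switches on human VEGF-A through a TetO promoter, and the mouse insulin promoter marks β cells with GFP. The untreated animals (No Dox) carried all of these transgenes too. The treated groups were adult mice taken after 1 week of Dox (1wk Dox) or 1 week after Dox had been withdrawn (1wk WD), and islets of several animals were pooled for a sample. Sorting separated β cells (GFP+), endothelial cells (ECs, CD31+) and MΦs (CD11b+), with 4 No Dox, 2 1wk Dox and 4 1wk WD samples of MΦs, 4, 1 and 5 of ECs, and 4, 5 and 3 of β cells.

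Insl6 encodes a secreted peptide of the insulin and relaxin superfamily that is best known from male germ cells, and no receptor for it is as well established as those of relaxin and Insl3. Htr7 encodes a serotonin receptor of the cell surface that couples to the stimulatory G protein, so that serotonin binding raises cyclic AMP, and serotonin can be made by β cells and is carried by platelets. Gxylt2 encodes a Golgi enzyme that adds xylose to the O-linked glucose on EGF-like repeats, a sugar modification carried by Notch receptors. CD11b+ sorting collects MΦs together with monocytes, neutrophils and some dendritic cells.

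In the mm9 mouse assembly used by the table, Insl6 (ENSMUSG00000050957) is on the minus strand at chr19:29395837-29399846 with 705 exonic bases in 1 annotated transcript. Htr7 (ENSMUSG00000024798) is on the minus strand of the same chromosome at chr19:36033224-36131997, with 3399 exonic bases over 6 transcripts, and Gxylt2 (ENSMUSG00000030074) is on the plus strand at chr6:100654728-100755075, with 2678 exonic bases over 2 transcripts. The stretches before the first annotated transcript start of Htr7 and Gxylt2 are shown because both genes are at or near the lowest score in some of the sorted cells and high in others. They were taken from RefSeq promoters of the GRCm38.p6 build and found by exact match in mm9, at chr19:36131998-36132100 on the minus strand for Htr7 and chr6:100654478-100654727 on the plus strand for Gxylt2, and each is written 5′ to 3′ along its gene.
Htr7: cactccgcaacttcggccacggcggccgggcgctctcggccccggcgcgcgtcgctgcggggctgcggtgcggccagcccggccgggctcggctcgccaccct
Gxylt2: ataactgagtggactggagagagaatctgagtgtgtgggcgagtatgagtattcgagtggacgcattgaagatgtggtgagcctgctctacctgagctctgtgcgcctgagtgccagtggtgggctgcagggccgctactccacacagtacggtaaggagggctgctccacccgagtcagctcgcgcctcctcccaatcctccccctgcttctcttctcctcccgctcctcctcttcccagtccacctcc
These stretches differ in composition, with 82.5% G and C in the 103 bases of Htr7 and 59.6% in the 250 bases of Gxylt2, against medians of 50.5% and 52.4% over the same stretch of 32851 mouse promoters. Neither holds TGACG (the core of the CRE site that binds CREB), GAGGAA (bound by the myeloid factor PU.1), TGAGTCA (AP-1) or GTGGGAA (the Notch effector RBPJ) on either strand, so no base is in capitals. In windows of 250 bases these motifs occurred in 17.8%, 23.3%, 4.5% and 5.4% of promoters, and in windows of 103 bases in 5.5%, 10.3%, 1.6% and 2.3%. The RefSeq table used here has no entry for Insl6.

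The values are whole-number scores that the authors normalized between samples by the TMM method, on which 1 is the lowest value. How a gene without reads is scored is not given in the sources used here. Whether they are divided by transcript length is not given in the sources used here, so a score is compared between samples and never between genes. Differences are on the log2(score + 1) scale from limma fits over all genes whose mean score reached 20 in 1 or more of the groups fitted, and a gene passed the test at a fold change of 2 or more with a Benjamini-Hochberg adjusted p under 0.05. Sums of scores ranged from 23465985 to 53441769 per sample, and read counts were not used here, so the depth behind a low score is unknown. The sorted MΦs carried their own markers, with a summed score over 10 macrophage markers of 241052 to 530488 against 3830 to 6490 in ECs and 609 to 7685 in β cells. No Dox MΦ replicates 2 and 4 stood apart in holding 19.9% and 4.91% of their summed score in 7 acinar enzyme genes, where the other MΦ samples held at most 0.566%. The library numbers in the column names fall into 2 separate ranges, and the later range holds 4 samples, namely both 1wk Dox MΦ samples, the 1wk Dox EC sample and 1wk WD β cell replicate 3. What these ranges mark is not stated, and since no other MΦ sample is in the later one, they cannot be told apart from 1wk Dox in the MΦ comparisons with that group. The 1wk WD and No Dox MΦ samples are all in the earlier range.

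Insl6 was low in resting MΦs and highest of all 9 groups in MΦs on Dox. In replicates 1 to 4 before Dox it scored 45, 15, 42 and 20, against 273 and 255 on Dox and 133, 210, 150 and 142 after withdrawal. Both 1wk Dox samples lay above every 1wk WD sample, and all 4 of these lay above every No Dox sample. The difference between 1wk Dox and No Dox was 3.21 ± 0.52 (SE, n = 2 and 4), and that between 1wk WD and No Dox was 2.46 ± 0.43 (SE, n = 4 and 4).

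Htr7, the serotonin receptor gene, had the same order of MΦ groups. No Dox MΦs had scores of 216, 70, 152 and 27, 1wk Dox MΦs had 648 and 763, and 1wk WD MΦs had 424, 241, 260 and 424. The 3 groups did not overlap, although the highest No Dox sample (216) came close to the lowest 1wk WD sample (241). The differences from No Dox were 2.97 ± 0.64 (SE) on Dox and 1.86 ± 0.53 (SE) after withdrawal. As RNA of sorted populations was measured, more RNA per cell and a larger share of cells that carry the transcript cannot be told apart for any of these genes.

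Gxylt2, the xylosyltransferase gene, was listed at or next to the lowest value in resting MΦs, with scores of 1, 2, 1 and 1. Scores of 84 and 56 were measured on Dox and of 136, 19, 72 and 10 after withdrawal. Every Dox-exposed sample was above every No Dox sample, but the 1wk WD samples spread widely on both sides of the 1wk Dox pair. The fitted differences of 4.97 ± 1.08 (SE) on Dox and 4.12 ± 0.88 (SE) after withdrawal depend on the pseudocount, because the No Dox group lies at the lowest scores, and with a pseudocount of 20 they were 2.07 and 1.59. Gxylt2 passed the filter on low scores only through its higher groups.

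All 3 genes were thus higher in every 1wk Dox MΦ sample than in every No Dox sample, where 16.2% of the 15014 genes tested had the same separation, and higher in every 1wk WD sample than in every No Dox sample, where 4.98% had it. Since the genes were chosen for the first of these differences and the second shares its No Dox samples, nothing is read from these counts. In the order of all 15014 differences between 1wk Dox and No Dox, Gxylt2 was at rank 2 between Zbtb20 (6.18 ± 1.99, SE) and Ppbp (4.80 ± 1.09), Insl6 at rank 26 between Nav3 (3.22 ± 1.21) and Myct1 (3.19 ± 1.58), and Htr7 at rank 49 between Gpx7 (2.97 ± 1.27) and Tspan8 (2.95 ± 1.41). Between 1wk Dox and 1wk WD, Insl6 fell by 0.75 ± 0.52 (SE) and Htr7 fell by 1.11 ± 0.64 as a description, with no overlap of the samples, as for 16.6% of genes. For Gxylt2 that difference was -0.85 ± 1.08, with overlap.

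**Figure D1:**
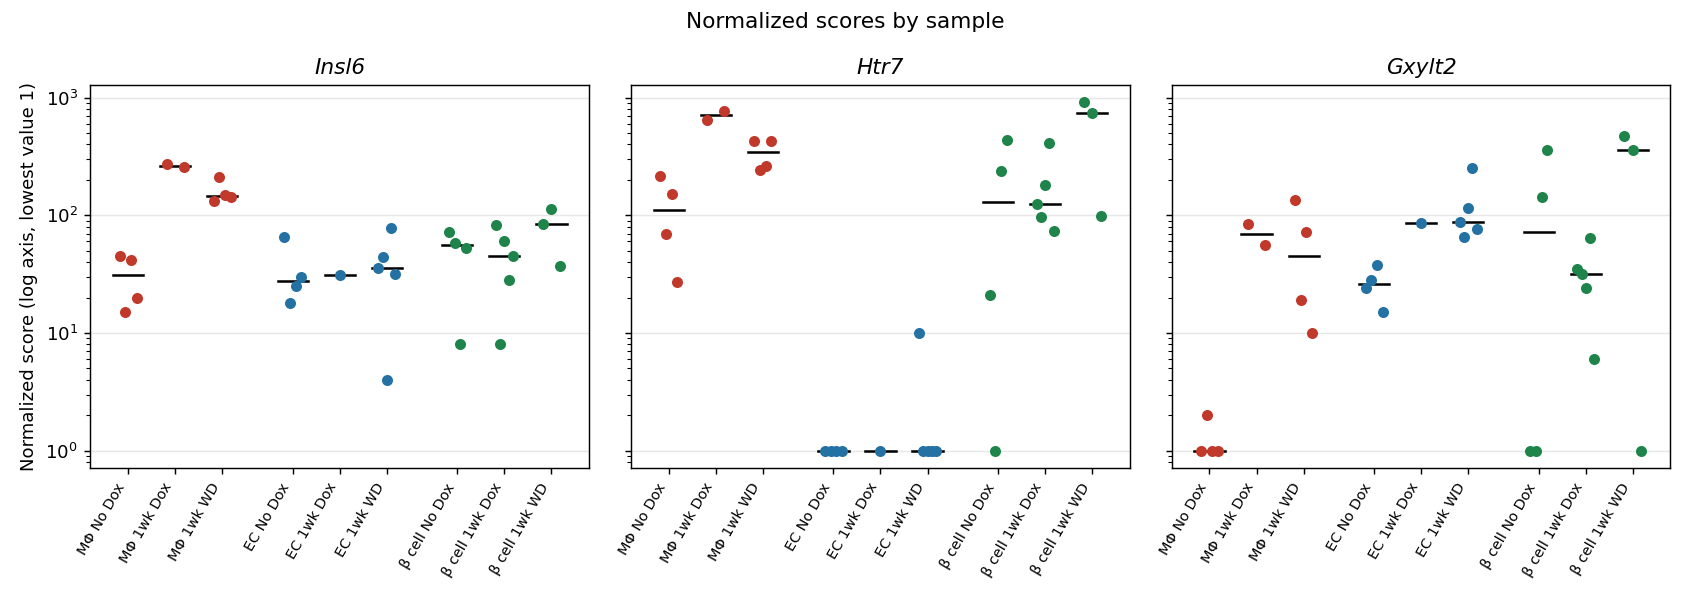
Normalized scores of Insl6, Htr7 and Gxylt2 in every sample (points; vertical log axis, lowest value 1) for MΦs, ECs and β cells in their 3 treatment groups, with the median of each group as a line. The No Dox MΦ samples lie below all other MΦ samples for each gene, Htr7 is at 1 in nearly all EC samples, and Htr7 and Gxylt2 spread from 1 to 910 and 470 among β cell samples.

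No Dox replicates 2 and 4, the MΦ samples rich in acinar RNA, were also those with the lowest Insl6 (15 and 20) and Htr7 (70 and 27). Without both of them the difference between 1wk Dox and No Dox was 2.57 for Insl6 and 1.95 for Htr7, and that between 1wk WD and No Dox was 1.82 and 0.84. The samples still did not overlap, since the remaining No Dox samples had 45 and 42 for Insl6 and 216 and 152 for Htr7.

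Marker lists of several cell types also differed between MΦ groups, acinar markers most. The 7 acinar markers summed to 23603 to 10653252 before Dox, 847 to 3149 on Dox and 1394 to 191749 after withdrawal. Every No Dox sample was therefore above both 1wk Dox samples, replicates 1 and 3 included, and 4 of the 7 genes passed the test as lower at 1wk Dox, with a median difference of -8.55. Among all genes 2.26% passed in this comparison. None of these acinar calls was kept with the replicate block or without 1wk Dox replicate 4.

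The summed score of the 10 macrophage markers had a median of 320474 before Dox, 480252 on Dox and 444240 after withdrawal. The complement genes C1qb (1.42 ± 0.24, SE; adjusted p = 0.0101 by limma) and C1qc (1.79 ± 0.24, adjusted p = 0.00407) and the Fc receptor gene Fcgr1 (1.16 ± 0.16, adjusted p = 0.00407) passed the test as higher at 1wk Dox, 3 of the 10. Itgam, which encodes the CD11b used for sorting, went the other way without passing, with scores of 29382 to 45478 before and 21379 to 22708 on Dox (-0.70 ± 0.20, adjusted p = 0.0706). Of 7 dendritic cell markers, with a median of -0.20, the chemokine receptor gene Ccr7 passed as higher (1.85 ± 0.37, adjusted p = 0.0187). The growth factor receptor gene Flt3 of the same list scored 5443 to 7609 before and 2978 to 3479 on Dox, and its difference of -0.97 ± 0.17 (adjusted p = 0.0101) stayed just under the 2-fold limit. The calls of C1qb, C1qc, Fcgr1 and Ccr7 were kept in 15, 17, 18 and 15 of 20 alternative fits. All of them were lost with the replicate block or without 1wk Dox replicate 4, and those of C1qb and Ccr7 also without 1wk Dox replicate 5.

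The sum over 8 endothelial markers ranged from 1375 to 1821 in No Dox MΦs, from 2870 to 3600 on Dox and from 1723 to 2501 after withdrawal. None of the 8 passed the test. The medians of this sum were 0.374%, 0.63% and 0.596% of those in ECs at the same times. Pecam1 had the highest MΦ means of the 8 genes, at 1157, 1656 and 1622. Over the 8 genes the median difference from No Dox was 2.01 on Dox, with 7 above 0, and 0.18 after withdrawal, with 5 above 0. Between 1wk WD and 1wk Dox the median difference was -1.47, with 0 of the 8 above 0. The 8 β cell markers summed to 1917 to 45525 before Dox, 8093 to 17568 on Dox and 3539 to 6792 after withdrawal, and the medians were 0.138%, 0.803% and 0.208% of those in β cells. Sums of 7 stromal markers were 647 to 2730 in No Dox, 1524 to 2832 in 1wk Dox and 1433 to 5460 in 1wk WD MΦs, and those of 7 neutrophil markers were 8053 to 10283, 7286 to 8159 and 8421 to 14185. For 7 monocyte markers the sums were 38882 to 47803, 37964 to 43423 and 35195 to 41944, and for 7 dendritic cell markers 24899 to 33795, 25343 to 27034 and 25814 to 36226. None of the stromal, neutrophil, monocyte or β cell markers passed at 1wk Dox. The part of these populations in the higher scores of Insl6, Htr7 and Gxylt2 was not tested.

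Genes past the test as higher in MΦs on Dox lay near Insl6, but they were not the nearest to it. Within 100000 bases on either side lay Jak2, Rln1, 5033414D02Rik, Cd274 and Pdcd1lg2. Only Cd274 and Pdcd1lg2, at 42099 and 85563 bases, passed the test, where 2.26% of all genes did. Cd274, which encodes the immune checkpoint ligand PD-L1, scored 1540 to 3054 before and 4237 to 4728 on Dox, and it rose by 1.16 ± 0.27 (SE; adjusted p = 0.0329 by limma). Pdcd1lg2, which encodes the related ligand PD-L2, scored 185 to 463 and 695 to 784 and rose by 1.44 ± 0.36 (adjusted p = 0.0409). These calls were not firm, because they were kept in only 10 and 7 of 20 alternative fits, with adjusted p up to 0.429 and 0.511, and both were lost when either 1wk Dox sample was left out. Jak2, a cytokine receptor kinase gene that lies 8267 bases from Insl6, scored 6023 to 9973 before Dox and 5915 and 6786 on Dox (-0.35 ± 0.20, adjusted p = 0.36). The relaxin gene Rln1, 6399 bases away, spread from 1 to 97 before Dox and scored 27 and 30 on Dox (2.48 ± 1.68, adjusted p = 0.435). For 5033414D02Rik, 23243 bases away, the scores were 1101 to 2457 and 1888 to 2377 (0.40 ± 0.25, adjusted p = 0.399).

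Neither of the other neighbourhoods held a gene past the test. Beside Htr7, Rpp30 (an RNase P subunit gene) differed by -0.04 ± 0.27 (adjusted p = 0.95) between 1wk Dox and No Dox MΦs, and Ankrd1 was too low to be tested. Beside Gxylt2, the differences were -0.42 ± 0.26 for Shq1 (adjusted p = 0.382) and -0.71 ± 0.24 for the phosphatase subunit gene Ppp4r2 (adjusted p = 0.106).

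**Figure D2:**
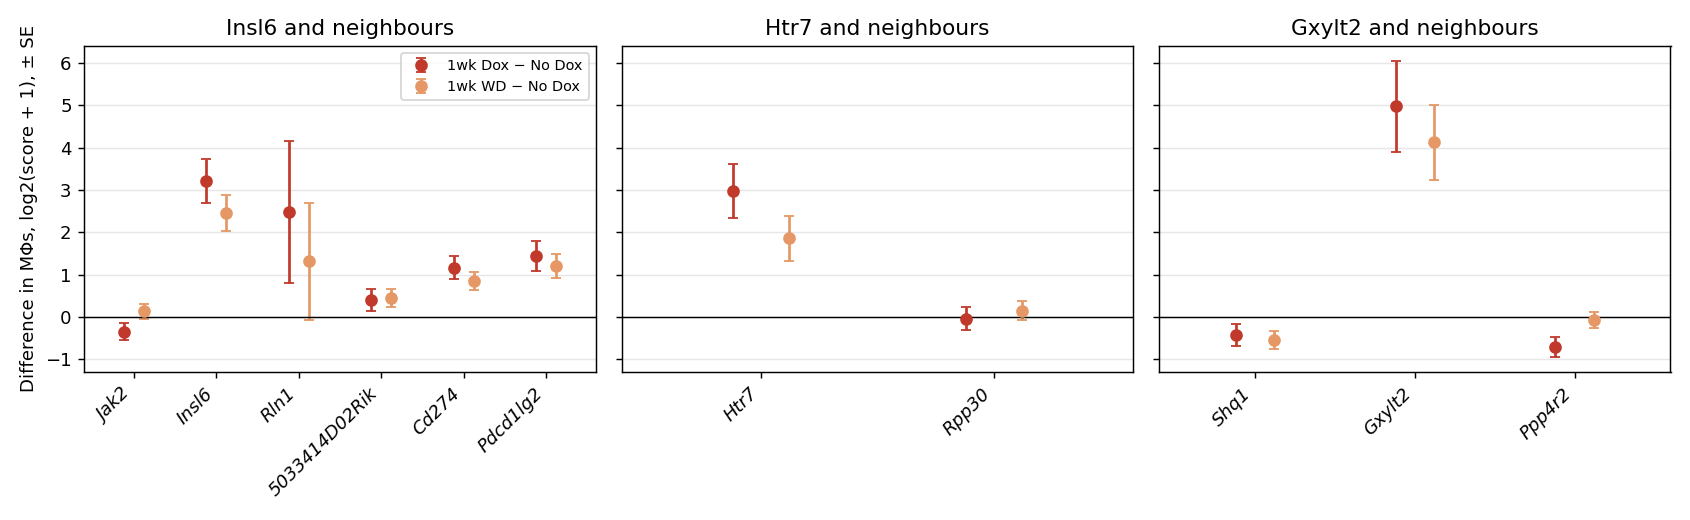
Difference in MΦs at 1wk Dox (red) and 1wk WD (orange) from No Dox, on the log2(score + 1) scale with SE bars, for each of the 3 genes and the tested genes within 100000 bases of it, in genomic order. Insl6, Htr7 and Gxylt2 lie far above Jak2, Rpp30, Shq1 and Ppp4r2, and Cd274 and Pdcd1lg2 lie above 0 by 1.16 and 1.44 at 1wk Dox. Rln1 is at 2.48 ± 1.68 at 1wk Dox, and its bar reaches past the value of Insl6 (3.21).

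The pathways around Insl6, Htr7 and Gxylt2 were followed in MΦs through 8 lists of 93 genes, of which 72 were tested. At 1wk Dox 1 of them (1.39%) passed the test, a share near the 2.26% of all genes, and nothing about the pathways is read from it. None passed at 1wk WD against No Dox (all genes 0.626%) or between 1wk WD and 1wk Dox (all genes 0.0866%). At an unadjusted p under 0.05 the counts of the 72 were 16 (22.2%), 13 (18.1%) and 4 (5.56%) in these comparisons, against 21.3%, 17.3% and 9.7% of all genes tested. The median difference of all tested genes between 1wk Dox and No Dox was 0.03.

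Among hormones, the gene that passed was the insulin-like growth factor gene Igf1, which scored 2586 to 5271 before Dox, 8551 and 12258 on Dox and 5298 to 8926 after withdrawal. It rose by 1.64 ± 0.28 (SE; adjusted p = 0.0101) at 1wk Dox, and the call was kept in 15 of 20 alternative fits and lost when either 1wk Dox sample was left out. Of the relaxin family and its receptors, 3 of 8 genes were tested and none passed, with a median of 1.31. Insl3 scored 23 to 43 before Dox and 61 and 94 on Dox (1.31 ± 0.57, adjusted p = 0.209), and Rxfp4, the receptor of Insl5, scored 170 to 275 and 277 to 294 (0.45 ± 0.40, adjusted p = 0.563). The relaxin receptor gene Rxfp1 and the Insl3 receptor gene Rxfp2 were at 1 in every Dox-exposed MΦ sample.

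Of the 13 other serotonin receptor genes, 3 reached the filter in MΦs, and none passed (median 0.11). Htr2a scored 16 to 105 before Dox and 41 to 47 on Dox (-0.15 ± 0.74, adjusted p = 0.934), and Htr2b scored 52 to 130 and 69 to 86 (0.11 ± 0.56, adjusted p = 0.936). Htr5b scored 2 to 42 and 12 to 24 (1.02 ± 1.05, adjusted p = 0.624). Htr4 and Htr6, which also couple to the stimulatory G protein, were at 1 or 2 in MΦs before and on Dox. Tph1, the rate-limiting enzyme of serotonin synthesis outside the brain, scored 818 to 17863 in No Dox β cells, 238 to 1270 on Dox and 1384 to 11891 after withdrawal, and at most 60 in any MΦ sample. Its difference in β cells between 1wk Dox and No Dox was -3.19 ± 0.91 (adjusted p = 0.45).

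Downstream of the receptor, 21 genes of the cyclic AMP pathway and its response were tested in MΦs and none passed, with a median of -0.08 on Dox and 0.20 after withdrawal. The cyclic AMP-induced repressor gene Crem scored 1365 to 2340 before Dox, 2528 and 2654 on Dox and 2728 to 3492 after withdrawal. Its difference of 0.92 ± 0.17 at 1wk WD had an adjusted p of 0.0285 but stayed under the 2-fold limit. Nr4a2, an immediate early nuclear receptor gene, scored 2057 to 3115 before Dox and 4021 to 4424 on Dox. It differed by 0.75 ± 0.19 at 1wk Dox (adjusted p = 0.042) and by 0.83 ± 0.15 at 1wk WD (adjusted p = 0.027), also under the limit, and the related Nr4a1 differed by 0.58 ± 0.21 at 1wk Dox (adjusted p = 0.138). The other 12 tested receptors that raise cyclic AMP also had none past the test, with a median of 0.04.

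No enzyme that acts beside Gxylt2 passed the test in MΦs. Gxylt1, the enzyme of the same activity, scored 2869 to 3955 before Dox, 2957 and 3514 on Dox and 2732 to 3273 after withdrawal (-0.10 ± 0.16 at 1wk Dox, adjusted p = 0.765). Poglut1, which adds the glucose that Gxylt2 extends, differed by 0.37 ± 0.17 (adjusted p = 0.234), and Xxylt1, which adds the next xylose, by -0.12 ± 0.22 (adjusted p = 0.817). The 9 tested genes of EGF repeat glycosylation had a median of 0.17. Of the Notch genes, 11 were tested and none passed, with a median of 0.75 at 1wk Dox. The Notch target gene Hes1 scored 150 to 275 before Dox and 561 and 583 on Dox (1.46 ± 0.40, adjusted p = 0.0565), and the ligand gene Jag1 scored 2083 to 3129 and 1508 to 1771 (-0.66 ± 0.17, adjusted p = 0.0463), under the 2-fold limit.

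**Figure D3:**
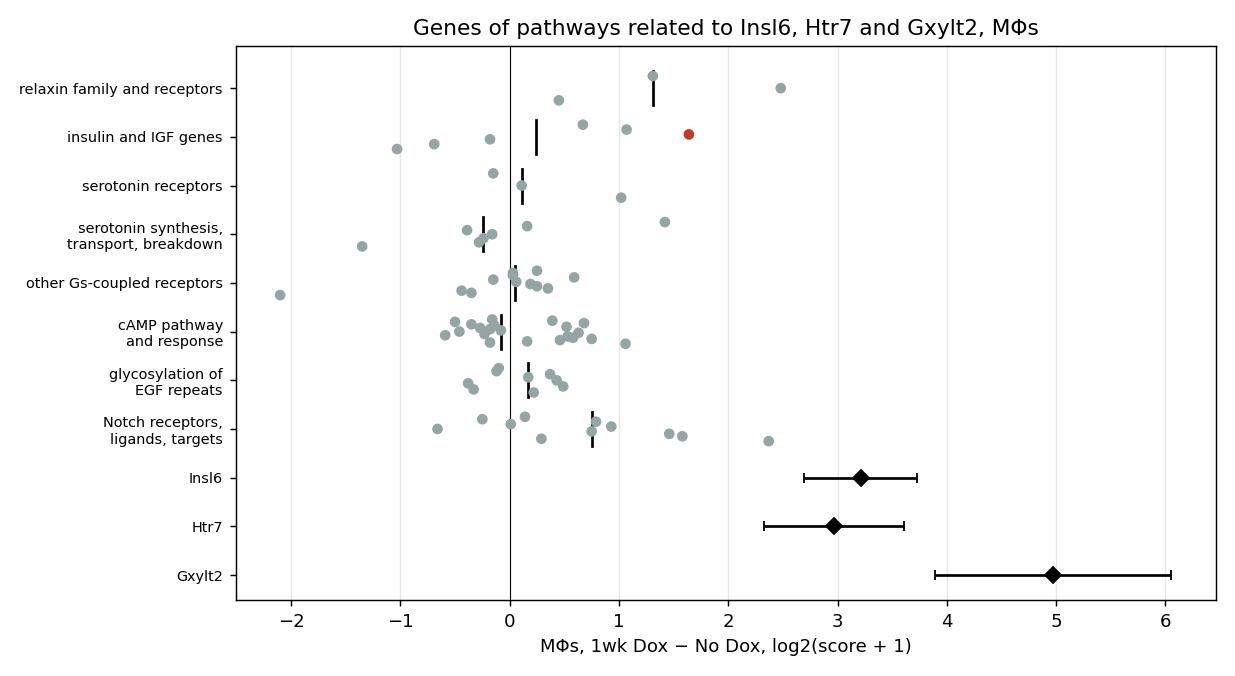
Difference between 1wk Dox and No Dox MΦs on the log2(score + 1) scale for each tested gene of 8 lists (circles; red past the test, black lines list medians) and for Insl6, Htr7 and Gxylt2 (diamonds with SE, description only). Igf1 is the red circle at 1.64, and the 3 diamonds at 3.21, 2.97 and 4.97 lie to the right of every circle.

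In ECs, which were not used to choose the genes, Gxylt2 was higher after Dox withdrawal. Its scores were 24, 28, 38 and 15 in No Dox ECs and 87, 65, 115, 251 and 76 in 1wk WD ECs, so the groups did not overlap, as for 5.75% of genes with ECs higher after withdrawal, and the single 1wk Dox EC sample had 86. Gxylt2 rose by 2.02 ± 0.43 (SE, n = 5 and 4; adjusted p = 0.0235 by limma), in a comparison where 1.76% of 14167 genes passed the test. The size held when single samples were left out (1.71 to 2.22), but the call was lost without any of No Dox replicates 1 to 4 (adjusted p = 0.0712, 0.0565, 0.0515 and 0.0683) or 1wk WD replicate 3 (adjusted p = 0.05). It was also lost with the replicate block (2.14, adjusted p = 0.0534) and with no trend (2.02, adjusted p = 0.0558). Stromal marker sums in ECs were 642 to 1754 before Dox and 6003, 2780, 1291, 5327 and 2926 in 1wk WD replicates 1 to 5. The collagen genes Col1a1 (2.07 ± 0.49, adjusted p = 0.0363) and Col1a2 (2.31 ± 0.40, adjusted p = 0.0115), 2 of these stromal markers, passed the same test. Acinar marker sums went the other way, from 59226 to 1574538 before Dox and from 676 to 57914 after withdrawal, and all 7 acinar markers passed the test as lower, by differences of -6.08 to -7.39 (adjusted p = 0.0174 to 0.0253). The part of either in the difference was not tested.

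Insl6 and Htr7 did not show such a difference in ECs. Insl6 scored 65, 18, 25 and 30 before Dox, 31 on Dox and 36, 44, 4, 78 and 32 after withdrawal, with a difference of -0.11 ± 0.71 (SE; adjusted p = 0.941). Htr7 was at the lowest score of 1 in all EC samples except 1wk WD replicate 1, which had 10, and it was too low to be tested. Whether the response of Gxylt2 differed between ECs and MΦs was not tested, since its MΦ values chose it.

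In β cells, none of the 3 genes passed the test at any of the 3 comparisons, where 0.0122%, 0% and 0% of 16346 genes did, and none had an unadjusted p under 0.05. Insl6 scored 72, 58, 8 and 53 before Dox, 82, 8, 60, 28 and 45 on Dox and 85, 112 and 37 after withdrawal, with overlap throughout. Htr7 scored 21, 1, 239 and 440 before Dox, 124, 96, 181, 409 and 74 on Dox and 910, 732 and 98 after withdrawal. Its largest difference, between 1wk WD and No Dox, was 3.12 ± 1.58 (SE; adjusted p = 0.614), and it ranged from 1.61 (without No Dox replicate 2) to 4.20 when single samples were left out.

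Gxylt2 split the β cell samples within groups rather than between them. It scored 1, 1, 143 and 361 before Dox, 35, 32, 24, 64 and 6 on Dox and 470, 356 and 1 after withdrawal. Stromal RNA differed between these samples too, and those with the least of it in a group were lowest in both genes. Summed scores of the 7 stromal markers were 300, 166, 56718 and 164065 in No Dox replicates 1 to 4 and 195227, 164908 and 11817 in 1wk WD replicates 1 to 3. At 1wk Dox the sums were 133450, 69737, 97293, 114845 and 38452, and the lowest had the lowest Htr7 (74) and Gxylt2 (6). The order did not hold throughout, since the sample with 133450 had less Htr7 (124) and Gxylt2 (35) than that with 114845 (409 and 64), and No Dox replicate 3 at 56718 had more Gxylt2 (143) than any 1wk Dox sample. Acinar markers held 1.74%, 0.0862%, 23.1% and 20.2% of the summed score in No Dox replicates 1 to 4, so that the samples high in both genes were also the richest in acinar RNA. In 1wk WD replicates 1 to 3 they held 1.96%, 0.325% and 0.000794%, in the same order as Htr7 and Gxylt2. At 1wk Dox they held at most 0.0746%, and the sample highest in both genes had 0.00297%. Over the 12 β cell samples the Pearson correlation of Htr7 with Gxylt2 was 0.84, a description of libraries that also differed in stromal, acinar and dendritic cell RNA, while Insl6 had correlations of 0.01 with Htr7 and -0.00 with Gxylt2. Whether the transcripts of Htr7 and Gxylt2 in these samples came from β cells was not tested.

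**Figure D4:**
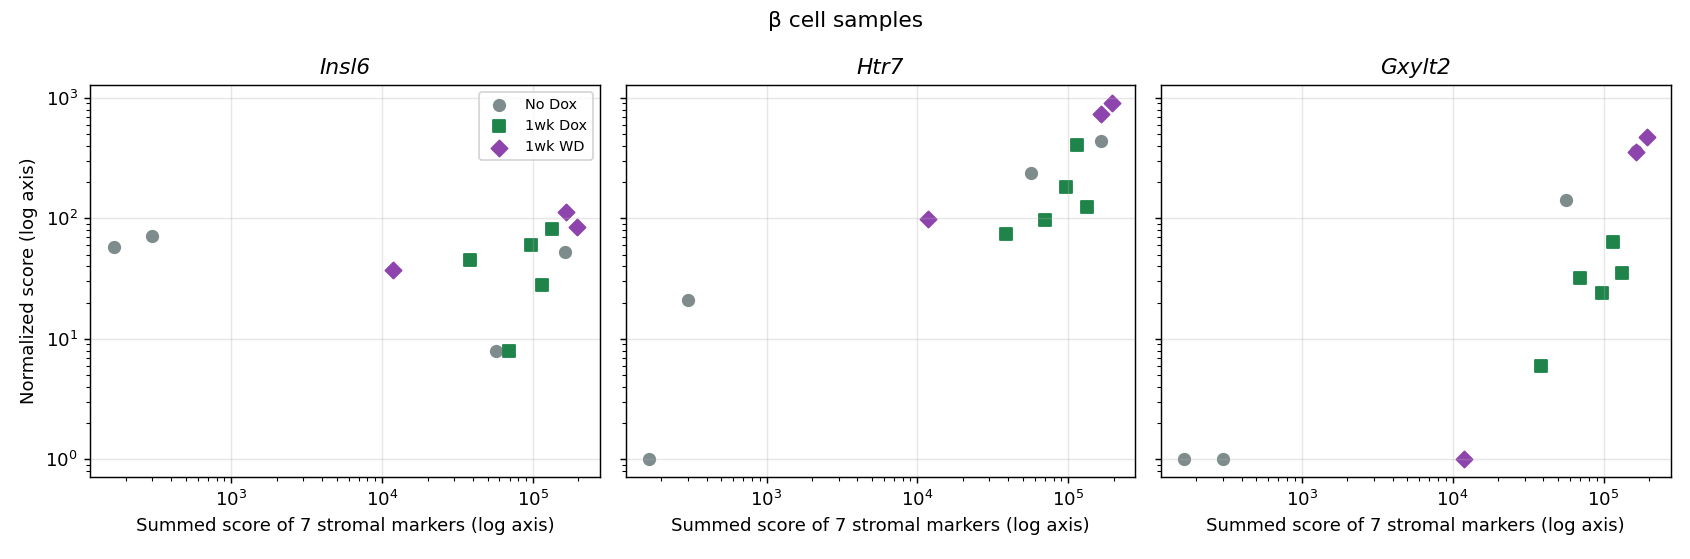
Scores of Insl6, Htr7 and Gxylt2 (vertical log axis) against the summed score of 7 stromal markers (horizontal log axis) in the 12 β cell samples, by treatment group. Htr7 and Gxylt2 reach 910 and 470 at the highest sum (195227) and are at 1 at the lowest (166), with samples out of order between them, while Insl6 scores 85 and 58 there.

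Between the sorted cell types at 1wk WD, Htr7 was near the lowest score in ECs and high in MΦs and β cells. It passed the filter only through the latter, so its differences from ECs are given without a test, at 6.86 ± 0.71 (SE, n = 4 and 5) for MΦs against ECs and -7.17 ± 0.77 (n = 5 and 3) for ECs against β cells. Neither pair overlapped, where 26.8% of 16435 genes had MΦs above ECs and 24.4% had ECs below β cells in every sample. These values are set by an EC group at the floor and are not read as folds. MΦs and β cells overlapped in Htr7 (-0.31 ± 0.81), with no settled direction, since the difference was 0.19 after quantile normalization and ranged from -1.32 (without β cell replicate 3) to 0.28 (without replicate 1) when single samples were left out.

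Because their MΦ scores chose the genes, the other differences of 1wk WD MΦs are given without a test too. Insl6 differed by 2.42 ± 0.68 (SE) from ECs, with all 4 MΦ samples (133 to 210) above the 5 EC samples (4 to 78). They were also above the 3 β cell samples (37 to 112), as for 26.1% of genes, with a difference of 1.13 ± 0.77 that was 2.31 after quantile normalization. For Gxylt2, the differences were -1.45 ± 1.35 between MΦs and ECs and -0.85 ± 1.54 between MΦs and β cells. The last had no settled direction when single samples were left out. It ranged from -3.41, without β cell 1wk WD replicate 3 (the sample with a score of 1), to 0.53. In these MΦ comparisons 40.3% (ECs) and 46.2% (β cells) of all genes passed the test. Between ECs and β cells, where 39.9% passed, the differences were -1.29 ± 0.74 for Insl6 (adjusted p = 0.161 by limma) and 0.60 ± 1.47 for Gxylt2 (adjusted p = 0.758). Neither direction was settled, as Insl6 differed by 0.35 after quantile normalization and Gxylt2 by -0.32 with a pseudocount of 20 and by -1.96 without β cell replicate 3. Of the genes past the test, 3156 were higher and 4444 lower in MΦs than in β cells (4514 and 3526 after quantile normalization), and 2431 were higher and 4134 lower in ECs than in β cells (4060 and 2996).

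Over the 9 groups, the mean score of Insl6 was highest in 1wk Dox MΦs (264), followed by 1wk WD MΦs (159), each without overlap with the next, and the remaining 7 groups had means from 30.5 to 78 and overlapped with their neighbours. Htr7 had means of 706 in 1wk Dox MΦs, 580 in 1wk WD β cells, 337 in 1wk WD MΦs, 177 in 1wk Dox β cells, 175 in No Dox β cells and 116 in No Dox MΦs, with overlap between all of these neighbours, and then of 2.8 or less in the 3 EC groups. Gxylt2 had its highest means in 1wk WD β cells (276), No Dox β cells (126) and 1wk WD ECs (119), followed by the 1wk Dox EC sample (86), 1wk Dox MΦs (70), 1wk WD MΦs (59.2), 1wk Dox β cells (32.2) and No Dox ECs (26.2). Of these neighbours, No Dox ECs and the lowest group, No Dox MΦs (1.25), did not overlap. The single 1wk Dox EC sample (86) lay just above the 1wk Dox MΦ samples (84 and 56), so nothing is read from that order.

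The genes most like each of the 3 were found by the Pearson correlation of log2(score + 1) over all 32 samples, which share cell type, treatment and library and so are not independent points. Insl6 was most like Itsn1 (0.70), CT025759.1 (0.65), Zdhhc14 (0.64), Flrt3 (0.64) and Mtmr4 (0.63). Flrt3, an adhesion molecule gene, had mean scores of 38 in No Dox, 260 in 1wk Dox and 165 in 1wk WD MΦs. Htr7 was most like A530099J19Rik (0.96), the complement gene C4b (0.95), the nuclease gene Dnase1l3 (0.93), 4932438H23Rik (0.93) and the retinoic acid synthesis gene Aldh1a2 (0.93), which were all high in MΦs and in β cell samples and low in ECs. Dnase1l3 had mean scores of 1650, 3880 and 3728 in MΦs and of 27.2, 30 and 33.4 in ECs before Dox, on Dox and after withdrawal. A530099J19Rik had MΦ means of 341, 312 and 368 and 4932438H23Rik of 1058, 947 and 976, so not every gene alike was higher on Dox. Gxylt2 was most like Arhgap10 (0.83), the complement protease gene Masp1 (0.83), Gm11146 (0.80), the cathepsin gene Ctsk (0.80) and the adaptor gene Gab1 (0.79). Masp1 had means of 82, 296 and 326 in ECs and of 9.5, 31.5 and 18.8 in MΦs over the same times. Within the 10 MΦ samples the 3 genes went together (0.89 for Insl6 with Htr7, 0.84 for Insl6 with Gxylt2 and 0.75 for Htr7 with Gxylt2), as genes picked for one difference between these samples must, while over all 32 samples those values were 0.45, 0.11 and 0.10.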

How the data were processed

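RNA of sorted β cells, ECs and MΦs was amplified (NuGEN Ovation) without strand marking and sequenced as paired-end reads by the authors, aligned to mm9 with TopHat 2.0 per the labels, and quantified and TMM-normalized in Avadis NGS. The deposited score is a whole number per gene with 1 as its lowest value, and the annotation version is not given in the sources used here. The table has 38 sample columns, of which 6 matched no label and were not used. The log2(score + 1) values were analysed in R 4.3.3 by limma 3.58.1, using its moderated test with a trend on mean expression and Benjamini-Hochberg adjustment over all genes tested, with 1 fit for MΦs, 1 for β cells, 1 for ECs at No Dox and 1wk WD, and 1 for the 3 cell types at 1wk WD. Differences of the 3 genes that involve MΦs, and those of Htr7 from ECs, are given without a test. The scripts were tested on simulated data.

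Insl6, Htr7 and Gxylt2 and all gene lists were chosen with earlier results of these data known. Genes named beside the 3 are list genes past the test or directly related to a member, genes within 100000 bases, the 5 genes most alike by correlation, and those next in rank. Itgam, Flt3, Col1a1, Col1a2, Crem, Nr4a1, Nr4a2, Hes1, Jag1 and Tph1 were named after their values were seen. Samples are pools of islets that the labels number as replicates but do not tie to animals, so p-values measure the spread between these samples. Alternatives were pseudocounts of 0.1 and 20, no filter or a minimum mean of 200, other scalings, no trend, a replicate block, only the groups compared, the 1wk Dox EC sample added, and leaving out samples; leaving out No Dox MΦ replicates 2 and 4 together was added after seeing the data. Because the scores keep no read depth, no counting interval was given.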

Additional observations from a re-analysis of the deposited data

Results flagged for a closer look

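Among the groups of 4 to 10 samples, 3 samples stood apart from the others of their group by Dixon's criterion, which flags about 1 in 20 groups by chance; 18 combinations of gene and group were examined. Gxylt2 in 1wk WD ECs reached 251 in replicate 4 (gap over range 0.731). Without that sample its difference from No Dox was 1.71. Htr7 in 1wk WD ECs was 10 in replicate 1 and 1 in the other samples, and Gxylt2 in No Dox MΦs was 2 in replicate 2 and 1 in the others; both lie at the lowest scores of the table.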

How the results depend on the processing

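Of 643 values of Insl6, Htr7, Gxylt2 and the pathway list counts under alternative settings, 588 kept their direction and their side of the test or moved by less than 1 SD. With a pseudocount of 20, the MΦ differences from No Dox were 2.54 (1wk Dox) and 1.86 (1wk WD) for Insl6 and 2.07 and 1.59 for Gxylt2, and untested or uncalled differences changed sign for Gxylt2 in β cells at 1wk Dox (-0.57), Insl6 in ECs (0.04) and Gxylt2 between ECs and β cells (-0.32). Quantile normalization, which moved the median of all genes from -0.14 to 0.23 between MΦs and β cells and from -0.12 to 0.30 between ECs and β cells at 1wk WD, gave 2.31 for Insl6 and 0.19 for Htr7 in the former and 0.35 for Insl6 in the latter. Gxylt2 in ECs lost its call with no trend (2.02, adjusted p = 0.0558). Without No Dox MΦ replicates 2 and 4 the differences were 2.57 and 1.82 for Insl6 and 1.95 and 0.84 for Htr7. The cause was not tested in any of these.

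The replicate numbers were not used to pair the samples in the main fits. Deviations of same-numbered samples correlated at -0.48 to 0.339 over all comparisons, and at -0.0738 to 0.142 between cell types at 1wk WD. Differently numbered samples were not correlated, so whether same-numbered samples shared a pool of islets was not tested. Acinar markers held their largest 1wk WD share in replicate 1 of every cell type (0.566% in MΦs, 0.182% in ECs and 1.96% in β cells). At No Dox it was in replicate 2 of MΦs and ECs and in replicate 3 of β cells. With the replicate block, Gxylt2 differed by 2.14 in ECs (adjusted p = 0.0534, call lost), by 6.24 between 1wk Dox and No Dox MΦs and by -2.12 between 1wk WD and 1wk Dox MΦs, and 3 in place of 340 genes passed between 1wk Dox and No Dox MΦs. The block changed no other call of Insl6, Htr7 or Gxylt2, and ended those of Igf1, Cd274, Pdcd1lg2, C1qb, C1qc, Fcgr1 and Ccr7 and of the 4 acinar genes.

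Where a 1wk Dox MΦ sample was left out, the remaining one was assumed to vary like the other groups. Leaving out single samples gave -0.77 to 0.42 for Insl6 and -0.82 to 1.68 for Gxylt2 in β cells at 1wk Dox, -0.47 to 0.53 for Insl6 and 1.71 to 2.22 for Gxylt2 in ECs, and at 1wk WD -1.32 to 0.28 for Htr7 and -3.41 to 0.53 for Gxylt2 between MΦs and β cells and -1.96 to 1.98 for Gxylt2 between ECs and β cells.

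Pathway list genes past the test in MΦs between 1wk Dox and No Dox numbered 1, 2 with a minimum mean score of 200 or quantile normalization, 0 with no trend, the block or only the 2 groups compared, 3 without No Dox replicates 2 and 4, and 0 to 3 without single samples. Between 1wk WD and No Dox they numbered 0, 1 with the minimum of 200, 2 after quantile normalization or without No Dox replicates 2 and 4, and 0 to 1 without single samples, and between 1wk WD and 1wk Dox 1 with only the 2 groups compared. All genes past the test between 1wk Dox and No Dox MΦs ranged from 0 (without 1wk Dox replicate 4) to 487 without single samples, and were 955 without No Dox replicates 2 and 4, 52 with no trend and 38 with only the 2 groups compared. At a minimum mean of 200, Insl6 was not tested outside MΦs and Gxylt2 not in ECs or MΦs, and Htr7 in ECs was tested only without a filter.

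The single 1wk Dox EC sample and the 2 1wk Dox MΦ samples are the smallest groups, and the scores hold no read depth, so no precision of a low value was derived.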
